A study of Mus musculus with 11 samples.

Results

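The transcripts described are those of *Hif1a*, *Adm*, and *Angptl4*, chosen by gene symbol as members of the response to low oxygen. In the lymphatic endothelial cells (LECs) all 3 were among the 191 genes listed, and in the carcinoma line HaCa4 *Adm* was among the 290 listed. *Hif1a* and *Angptl4* were not analysed here in HaCa4 cells. Bulk RNA sequencing covered 11 libraries of mouse cells. There were 2 libraries of HaCa4 control and 3 each of HaCa4-sorted, LEC control, and LEC-sorted. HaCa4 is a skin squamous cell carcinoma line that carries an oncogenic H-Ras mutation. The LECs are an Immortomouse line (imLEC) with a thermolabile SV40 large T antigen, and the study used more than 1 clone of it without telling them apart. Control cells grew as single cultures, whereas sorted cells grew in co-culture of both lines for 24 h. They were then isolated by FACS, HaCa4 cells by the dye CFSE and LECs by an antibody to CD31. The sources used here do not say that control cells were stained and sorted, so co-culture and sorting cannot be told apart. Nor do they say that libraries of a group came from separate cultures, so p-values measure the spread between libraries, which may be technical.

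*Hif1a* encodes the oxygen-regulated subunit of HIF-1, a transcription factor. In normal oxygen the protein is hydroxylated by prolyl hydroxylases of the Egln family and degraded, so its activity is set largely at the level of the protein, which RNA does not measure. *Adm* encodes adrenomedullin, a secreted peptide that acts on endothelial cells through the receptor Calcrl with Ramp proteins and is needed for lymphatic vessel development. *Angptl4* encodes a secreted inhibitor of lipoprotein lipase that also acts on vessel permeability. Both are classical HIF targets, and *Angptl4* is also a target of PPAR factors.

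The 3 genes lie on different chromosomes of GRCm38.p6. *Hif1a* spans chromosome 12 from 73901324 to 73947554 on the plus strand, *Adm* chromosome 7 from 110627657 to 110629820 on the plus strand, and *Angptl4* chromosome 17 from 33774900 to 33781575 on the minus strand. The GENCODE transcripts Hif1a-201, Adm-201, and Angptl4-201 have 15, 4, and 7 exons. An antisense gene, Gm15283, shares 5.60% of the exonic bases of *Hif1a*, and a coding gene on the same strand, Gm49321, shares 2.51%. The sources do not say that counting used strand, so reads from these shared bases cannot be told apart. The antisense gene Gm28863 spans *Adm* but shares 0 of its exonic bases.

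The promoters of *Hif1a* and *Adm* are shown because HIF binds the core letters ACGTG or GCGTG and both transcripts were higher in LEC-sorted. These are the 250 bases before a RefSeq transcript start on the plus strand, at chr12:73907617-73907866 and chr7:110627407-110627656. The *Hif1a* window lies inside the gene span given above, which begins at 73901324. Each core is in capitals, read on either strand.
Hif1a: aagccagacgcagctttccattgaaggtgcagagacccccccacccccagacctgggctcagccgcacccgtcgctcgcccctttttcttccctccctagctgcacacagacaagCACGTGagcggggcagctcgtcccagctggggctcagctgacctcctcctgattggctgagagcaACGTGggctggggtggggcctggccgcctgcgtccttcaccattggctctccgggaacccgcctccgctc
Adm: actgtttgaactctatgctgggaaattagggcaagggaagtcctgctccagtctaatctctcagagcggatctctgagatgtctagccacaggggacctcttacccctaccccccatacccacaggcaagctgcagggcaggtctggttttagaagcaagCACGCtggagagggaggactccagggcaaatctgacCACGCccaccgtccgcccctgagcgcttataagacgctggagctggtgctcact
The *Hif1a* window holds 3 matches, all ACGTG, of which 2 overlap in the palindrome CACGTG. The *Adm* window holds 2 matches, both GCGTG on the minus strand. Of 32851 promoter windows of this length in the table, 38.6% hold at least 1 such core, 16.7% hold at least 2, and 6.58% at least 3. Among the windows of genes listed for LECs the share with at least 1 was 46.6%. Neither window overlaps an annotated exon, although the *Hif1a* window lies in an intron of a longer GENCODE transcript. *Angptl4* has no entry in the promoter table.

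The listing limits every test that follows. In LECs the smallest rise among all 191 listed genes was 0.44 and the smallest fall -0.46 on the log2 scale, and 185 of the 191 genes had no overlap between control and sorted libraries. Thus the listed genes are a set in which nearly every gene differs between these samples. The study reports as many deregulated LEC genes as are listed, with the same split by direction as the means given below. The LEC list thus appears to be the study's own calls from these libraries. A call for a member is therefore not independent evidence of a change. For HaCa4 cells the study reports fewer deregulated genes than are listed, so how that list was made is not known. As an alternative, each library was scaled to a common median of the listed genes, since these alone were analysed here. Of them 127 had a higher and 64 a lower mean in LEC-sorted, and 192 and 98 in HaCa4-sorted. Such a median is itself raised by the selection, so this scaling lowered the log2 fold changes together, by a median of -0.61 in LECs and -0.72 in HaCa4 cells. A call lost under it follows from that shift and does not show what a scaling over all transcripts would give. Past the thresholds given next, the same shift split the listed LEC genes into 46 higher and 64 lower instead of 122 and 62, and the HaCa4 genes into 46 and 94 instead of 46 and 41. Together the listed genes hold from 1.84% to 3.85% of a library's TPM. In bulk samples, fewer cells of a type and less RNA per cell cannot be told apart. Of the markers of each cell type, *Krt8* was at 283.80 and 380.41 TPM in the HaCa4 controls, and *Kdr* was at 88.48 TPM or more in all 6 LEC libraries. Of 34 keratinocyte markers, 4 were listed for HaCa4 cells. In HaCa4-sorted, *Krt6b* (log2 change -1.87) and *Krt8* (-0.57) were lower and *Krt19* (0.97) was higher past the thresholds. *Dsg3* (-0.69) did not pass. Of 40 endothelial markers, 4 were listed for LECs, all past the thresholds. In LEC-sorted the means of *Pdpn* (144 to 352 TPM) and *Nts* (37.2 to 91.6 TPM) were higher. Those of *Kdr* (152 to 101 TPM) and *Clec14a* (75.8 to 29.0 TPM) were lower. Their sums were from 383 to 440 TPM for the controls compared with 455 to 644 TPM for LEC-sorted, which pools these opposite changes. *Prox1*, *Lyve1*, and *Pecam1* were not analysed here in LECs.

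All 3 transcripts were higher in every LEC-sorted library than in any LEC control. The mean after co-culture was 1.72 times that of the control for *Hif1a*, 2.0 times for *Adm*, and 3.53 times for *Angptl4*. *Angptl4* thus moved from the lowest of the 3 in the control to a level near that of *Hif1a* after co-culture. All 3 passed both thresholds with limma, which were a size of 0.5 or more on the log2 scale together with an adjusted p no larger than 0.05. Among all genes listed for LECs, 63.9% passed in this direction, and 63.9% had all sorted libraries above all controls.

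*Hif1a* was at 129.55, 104.85, and 124.21 TPM in LEC controls 1 to 3 and at 168.66, 235.83, and 213.82 TPM in LEC-sorted replicates 1 to 3. The controls lay close together, and among the sorted libraries replicate 1 was lowest, at 1.30 times the highest control. The means were 120 ± 13.0 TPM (SD, n = 3) and 206 ± 34.2 TPM (SD, n = 3). On the log2(TPM + 1) scale the rise was 0.77 with a standard error of 0.18, and limma gave an adjusted p of 0.00744. With the libraries scaled to the common median of the listed genes, the difference was 0.15 (adjusted p = 0.452 in limma). This scaling takes about the same amount off genes well above 1 TPM and less off scarce genes, such as *Krt8* in LECs (0.95 to 0.79).

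*Adm* was the most abundant of the 3 genes in each of the 6 libraries. Its controls had 401.14, 306.02, and 324.51 TPM, and LEC-sorted replicates 1 to 3 had 810.08, 714.51, and 537.46 TPM. Replicate 1 was the highest sorted library for *Adm* although it was the lowest for *Hif1a*, so the order of the sorted libraries differed between these genes. The means were 344 ± 50.4 TPM and 687 ± 138 TPM (SD, n = 3 each). Only 12 of the 191 listed genes had a higher mean in LEC control. The log2 difference of 0.99 had a standard error of 0.20 and an adjusted p of 0.00527 in limma. The same scaling, with the same shift, left a difference of 0.36 and an adjusted p of 0.192.

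*Angptl4* changed most. Its controls had 53.94, 47.61, and 66.66 TPM, and the sorted replicates reached 177.41, 236.60, and 180.19 TPM. The lowest sorted library was 2.66 times the highest control, whereas this gap was 1.30 and 1.34 times for *Hif1a* and *Adm*. The means were 56.1 ± 9.70 TPM and 198 ± 33.4 TPM (SD, n = 3 each). For *Angptl4* limma estimated a log2 rise of 1.80 with a standard error of 0.19, and the adjusted p was 0.000543. With the common median the log2 rise was 1.18 and still passed (adjusted p = 0.00135 in limma). An exact two-sided permutation test over the 6 libraries gave p = 0.1 for each of the 3 genes, the smallest value that 3 against 3 allows.

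**Figure D1:**
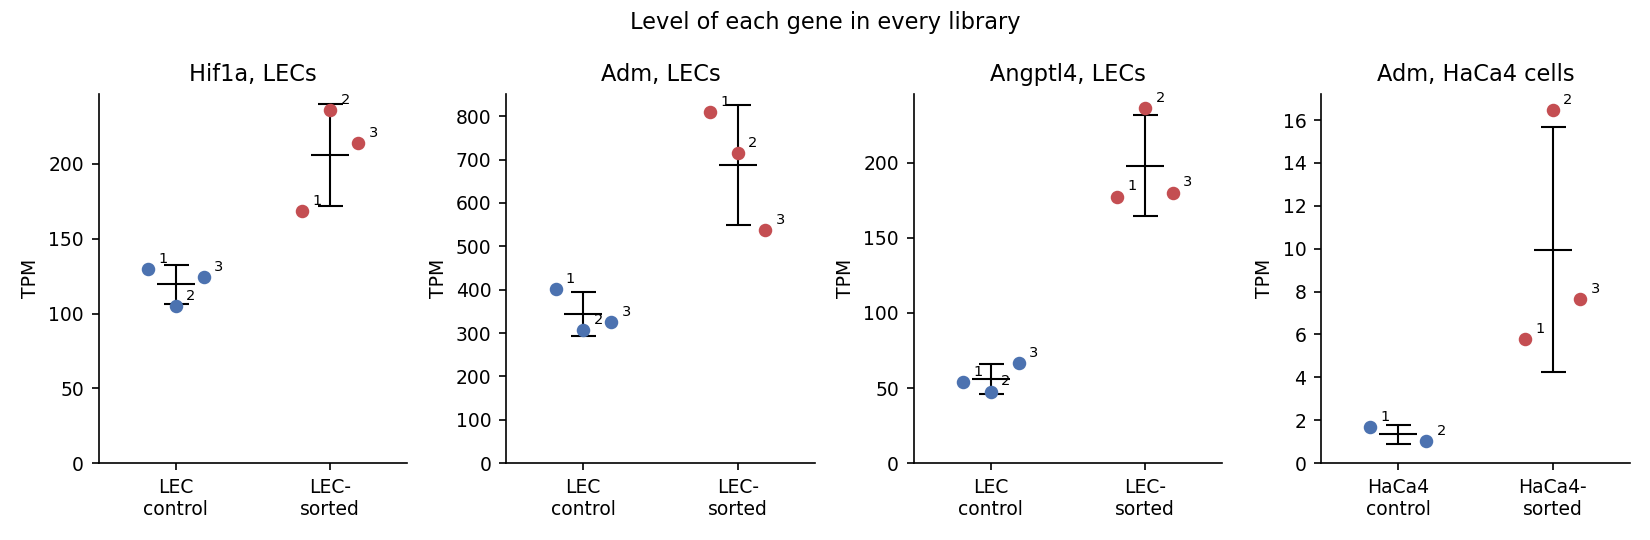
Level in TPM (vertical axis, from 0) of *Hif1a*, *Adm*, and *Angptl4* in the LEC libraries and of *Adm* in the HaCa4 libraries. Points are libraries with their replicate numbers, and bars give mean and SD. In every panel the sorted libraries lie above the controls, and *Adm* in HaCa4-sorted ranges from 5.77 to 16.46 TPM.

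A larger log2 fold change was found for 30 of the 191 listed genes in the case of *Angptl4*, for 80 in the case of *Adm*, and for 107 in the case of *Hif1a*. The median of all listed LEC genes was 0.87, between the values of *Hif1a* and *Adm*.

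**Figure D2:**
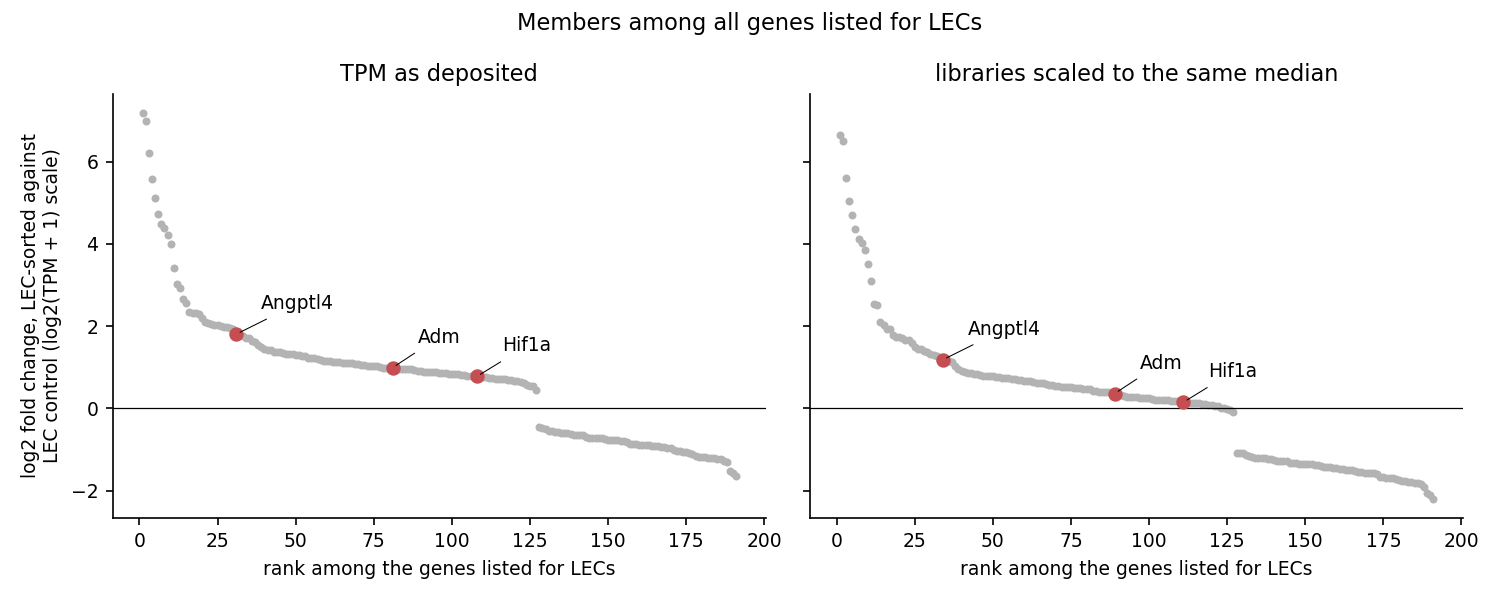
Log2 fold change of LEC-sorted against LEC control on the log2(TPM + 1) scale (vertical axis) for the 191 listed genes in order of rank (horizontal axis), as deposited and with libraries scaled to a common median. Red points mark the 3 genes. *Angptl4* stands at 1.80 and 1.18, *Adm* at 0.99 and 0.36, and *Hif1a* at 0.77 and 0.15, and no gene lies close to 0 in the values as deposited.

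A ratio of 2 genes within a library does not depend on how that library was scaled. The ratio of *Angptl4* to *Hif1a* was 0.42, 0.45, and 0.54 in controls 1 to 3. In sorted replicates 1 to 3 it was 1.05, 1.003, and 0.84. The groups did not overlap, and the log2 ratio rose by 1.04 (exact two-sided permutation test, p = 0.1). The ratio of *Angptl4* to *Adm* was 0.13, 0.16, and 0.21 for the controls, compared with 0.22, 0.33, and 0.34 for the sorted libraries. These groups were also apart, by a narrow margin between control 3 and sorted replicate 1. The log2 ratio of *Angptl4* to *Adm* was higher by 0.83 in LEC-sorted (exact two-sided permutation test, p = 0.1). Both p-values are the smallest that the design allows, so neither can reach 0.05.

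*Adm* and *Hif1a* gave a different picture. Their ratio was 3.10, 2.92, and 2.61 for controls 1 to 3, compared with 4.80, 3.03, and 2.51 for sorted replicates 1 to 3. Only sorted replicate 1 stood above the controls, and sorted replicate 3 was below all of them. The log2 ratio differed by 0.21 (exact two-sided permutation test, p = 0.8), and without LEC-sorted replicate 1 the difference was -0.056.

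**Figure D3:**
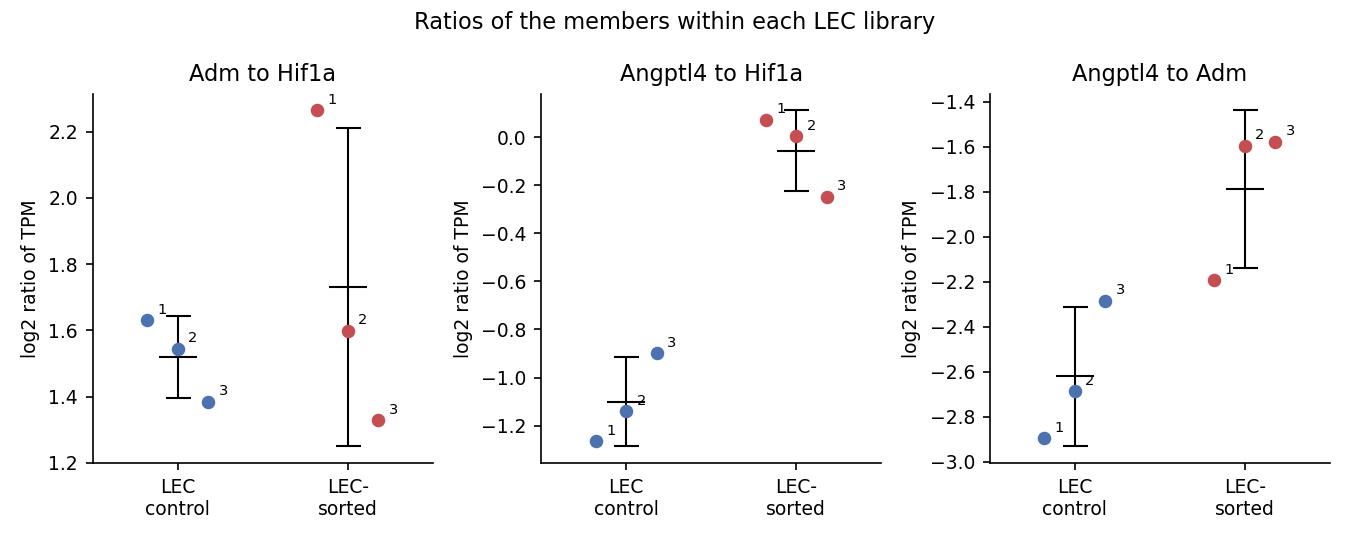
Log2 ratio of TPM (vertical axis) of *Adm* to *Hif1a*, *Angptl4* to *Hif1a*, and *Angptl4* to *Adm* within each LEC library. Points are libraries with replicate numbers, and bars give mean and SD of the log2 ratio. The groups overlap for *Adm* to *Hif1a* and are apart in the other panels, where mean log2 ratios go from -1.10 to -0.06 and from -2.62 to -1.79.

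The genes most like each member were taken by Pearson r of log2(TPM + 1) over the 6 LEC libraries. All listed genes were compared, and nearly all of them differ between the same groups, so high values are common. An r above 0.9 was found for 35 of 190 genes with *Hif1a*, 46 with *Adm*, and 88 with *Angptl4*. The genes closest to *Hif1a* were *Sod2* (r = 0.999), *Slit2* (r = 0.996), *Il6* (r = 0.991), *Lims1* (r = 0.985), and *Cfap69* (r = 0.975). *Sod2*, the mitochondrial superoxide dismutase, was at 19.6 ± 3.43 TPM in LEC control and 46.1 ± 11.3 TPM in LEC-sorted (SD, n = 3 each). *Sod2* and *Hif1a* shared their deviations from the group means (r = 0.994 over the 6 libraries). As *Sod2* was chosen by r over these same libraries, this value is not independent.

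For *Adm* the closest were *Slc25a25* (r = 0.983), the CXC chemokines *Cxcl2* (r = 0.982) and *Cxcl3* (r = 0.981), *Dtwd1* (r = 0.980), and *Nfkbiz* (r = 0.977), an atypical inhibitor of NF-κB. For *Angptl4* they were the neutrophil-attracting chemokine *Cxcl5* (r = 0.994), the iron transporter *Slc11a2* (r = 0.990), *Cxcl1* (r = 0.990), *Lcn2* (r = 0.988), and *Cfap69* (r = 0.987). Between the members r was 0.954 for *Hif1a* and *Angptl4*, 0.909 for *Adm* and *Angptl4*, and 0.823 for *Hif1a* and *Adm*. These values describe 6 libraries in 2 groups and carry no test.

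Genes of the hypoxia response, *Adm* and *Angptl4* included, were followed with a list of 83 symbols widely reported as induced by low oxygen. Older and newer symbols count separately in it. Of these, 7 were listed for LECs, *Adm* and *Angptl4* among them, so the counts below are not independent of the members. Past the thresholds, 6 were higher and 1 was lower in LEC-sorted, where 63.9% of all listed genes were higher and 32.5% lower. The median log2 fold change of the 7 genes was 0.99, the value of *Adm* itself, against 0.87 for all listed LEC genes. Apart from *Adm* and *Angptl4* the values were -1.18, 0.58, 0.80, 1.31, and 1.75, on both sides of 0.87. With the libraries scaled to a common median, 3 were higher, *Angptl4* among them, and 1 lower past the thresholds.

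Beside *Adm* and *Angptl4*, the list held genes of glucose uptake, organic anion transport, and early response. *Slc2a1*, the glucose transporter GLUT1, had 121.55, 110.42, and 115.62 TPM in LEC control, and 182.68, 170.09, and 166.66 TPM after co-culture. Both groups were tight, and its log2 rise of 0.58 passed (adjusted p = 0.00744 in limma), but with a common median the difference was -0.05 and did not pass. *Slco4a1*, an organic anion transporter, was at 39.00, 47.30, and 63.16 TPM against 104.40, 119.40, and 148.37 TPM, a log2 rise of 1.31 that passed under both scalings. *Ier3*, an early response gene, went from 130 ± 23.8 TPM to 442 ± 112 TPM (SD, n = 3 each), and *Fosl2*, an AP-1 subunit, from 87.7 ± 20.6 TPM to 150 ± 12.1 TPM. *Fosl2* passed (adjusted p = 0.00951 in limma) but not with a common median, whereas *Ier3* passed under both scalings. The rise of *Ier3* was 1.75 on the log2 scale and close to that of *Angptl4*.

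*Hmox1*, heme oxygenase 1, was the gene of the list that fell. Its controls had 789.74, 1350.30, and 905.80 TPM, whereas the sorted replicates had 279.22, 576.98, and 508.18 TPM. Its level in every control exceeded that in every sorted library. Its log2 fold change of -1.18 had a standard error of 0.32 and an adjusted p of 0.0110 in limma.

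Among 14 HIF factors and regulators, *Hif1a* was the 1 gene listed for LECs, and among 14 genes of the adrenomedullin system *Adm* was the 1 gene listed. The receptor genes *Calcrl* and *Ramp2* were not analysed here. Of 23 genes around *Angptl4* and lipoprotein lipase, *Angptl4* was the 1 listed. Of 29 angiogenic ligands and receptors, *Kdr*, the main signalling receptor for VEGF-A, was listed. *Kdr* fell from 152 ± 17.8 TPM to 101 ± 14.4 TPM (SD, n = 3 each), a log2 change of -0.59 (adjusted p = 0.0126 in limma).

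**Figure D4:**
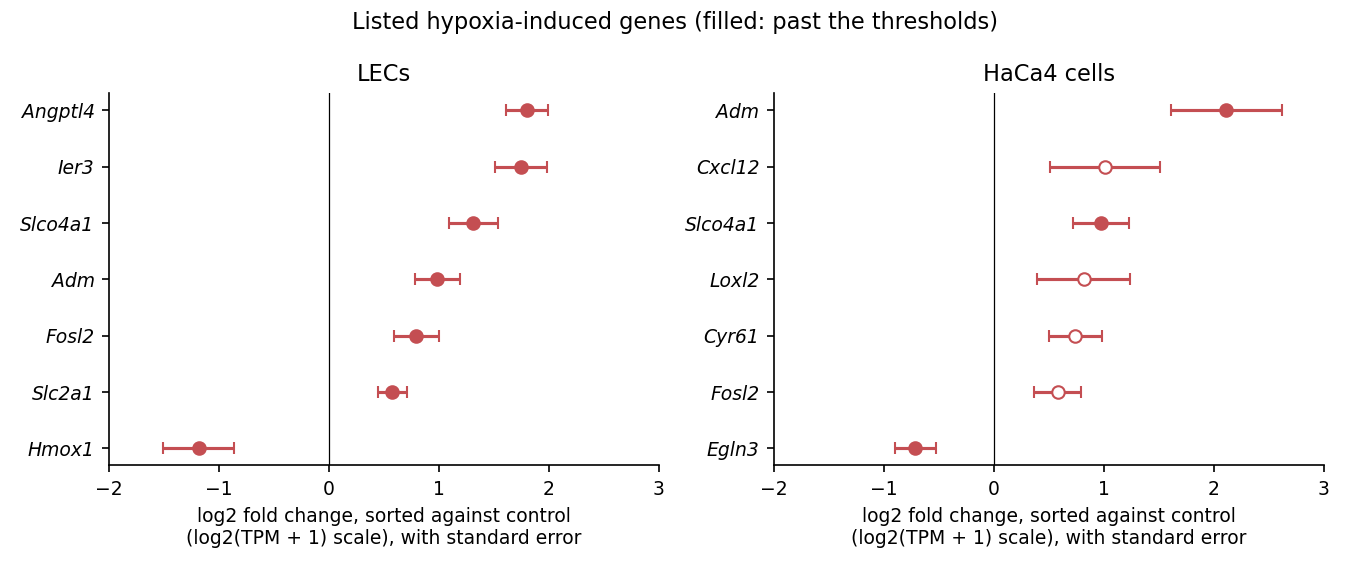
Log2 fold change of sorted against control (horizontal axis, log2(TPM + 1) scale) with its standard error, for the listed genes of the hypoxia list in LECs and HaCa4 cells (vertical axis). Filled points passed the thresholds. In LECs *Angptl4* leads at 1.80 and *Hmox1* is negative at -1.18. In HaCa4 cells *Adm* leads at 2.11 and *Egln3* is negative at -0.71.

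In HaCa4 cells *Adm* was scarce and rose, with mean levels of 1.35 ± 0.45 TPM (SD, n = 2) for the controls compared with 9.96 ± 5.71 TPM (SD, n = 3) for HaCa4-sorted. The controls were at 1.67 and 1.03 TPM, and HaCa4-sorted replicates 1 to 3 at 5.77, 16.46, and 7.66 TPM. Every sorted library was above both controls, and replicate 2 was far above the other sorted libraries. The log2 difference of 2.11 had a standard error of 0.50, and *Adm* passed the thresholds with an adjusted p of 0.0366 from limma. Among all genes listed for HaCa4 cells, 15.9% passed in this direction, and 63.1% had sorted libraries all above the controls. With the common median the log2 difference was 1.49 (adjusted p = 0.0175 in limma). The call was lost without HaCa4 control replicate 1 (adjusted p = 0.1002 in limma), without control replicate 2 (adjusted p = 0.190), and without sorted replicate 3 (adjusted p = 0.0769). It was kept without sorted replicate 1 (adjusted p = 0.0129) and without sorted replicate 2 (adjusted p = 0.0350), with log2 differences of 2.40 and 1.72.

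Endothelial markers moved with *Adm* in these libraries. Of the 40 endothelial markers, 20 were listed for HaCa4 cells, and their means were higher in HaCa4-sorted for all 20. Of these, 3 passed the thresholds and 14 passed them with the common median of the listed genes. Of all 290 listed genes, 192 had a higher mean, 46 passed upwards, and 46 did so with the common median. As 280 of the 290 had no overlap between control and sorted libraries, being listed already goes with a difference. Their summed level was 6.77 and 5.27 TPM in HaCa4 control, compared with 28.52, 366.58, and 160.92 TPM in sorted replicates 1 to 3. *Cdh5*, *Emcn*, and *Flt4* were among 7 of these markers at 0 in both controls, as were 44 of all 290 listed genes. A listed gene at 0 there can only be higher in HaCa4-sorted. All 20 had their highest value in sorted replicate 2 and their lowest in replicate 1, the order also found for *Adm*, whereas 103 of the 192 listed genes with a higher mean in HaCa4-sorted had this order.

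The rise of *Adm* over the control mean was 4.42, 15.11, and 6.31 TPM in sorted replicates 1 to 3. This amounts to 19.6, 4.19, and 4.07 TPM of *Adm* for each 100 TPM by which the summed markers rose. Replicates 2 and 3 thus gave nearly the same proportion, and replicate 1 a higher one. *Kdr* was the 1 endothelial marker listed for both cell lines. In LEC-sorted the ratio of *Adm* to *Kdr* was 9.16, 7.34, and 4.61, and in HaCa4-sorted the rise of *Adm* was 35.4, 8.19, and 5.56 times that of *Kdr*. Replicates 2 and 3 were within the range of LEC-sorted, and replicate 1, with *Kdr* at 0.15 TPM, was above it. The part of endothelial RNA in the level of *Adm* in HaCa4-sorted was not tested.

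**Figure D5:**
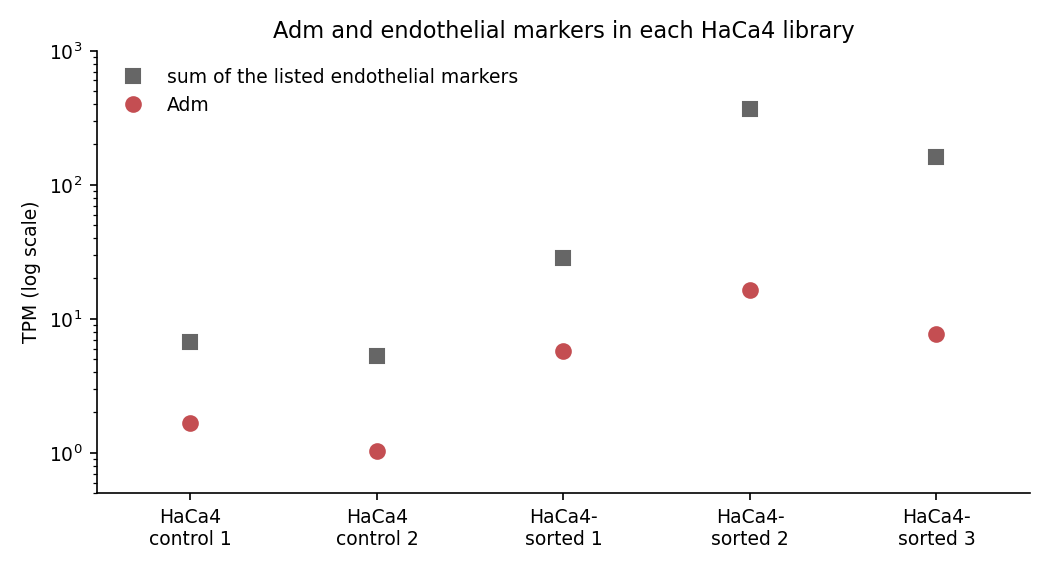
TPM on a log scale (vertical axis) of *Adm* (circles) and of the sum of the 20 listed endothelial markers (squares) in each HaCa4 library (horizontal axis). Both are lowest in the controls and highest in sorted replicate 2, at 16.46 TPM for *Adm* and 366.58 TPM for the markers.

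The same look at LECs rests on 1 listed keratinocyte marker of 34. *Krt8*, a simple epithelial keratin, was at 0 in the 3 LEC controls, whereas LEC-sorted replicates 1 to 3 had 0.19, 2.19, and 0.89 TPM. The highest of these is 0.99% of the mean *Krt8* level in HaCa4-sorted. *Adm* was at most 16.46 TPM in HaCa4-sorted, and its mean in LEC-sorted was higher than in LEC control by 343 TPM. *Hif1a* and *Angptl4* could not be compared in this way. The part of HaCa4 RNA in the levels of the 3 genes in LEC-sorted was not tested.

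The genes most like *Adm* over the 5 HaCa4 libraries were the scaffold protein gene *Akap12* (r = 0.998), *Cyp1b1* (r = 0.997), *Adgrg1* (r = 0.993), and the caveolar gene *Cavin2* (r = 0.978). *Akap12* had 2.38 and 1.67 TPM in the controls, compared with 5.77, 15.9, and 8.38 TPM in sorted replicates 1 to 3, which is close to *Adm* in level. An r above 0.9 was found for 79 of 289 genes.

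Of the 83 hypoxia-induced symbols, 7 were listed for HaCa4 cells, the member *Adm* included. Their median log2 fold change was 0.82 against 0.74 for all listed genes. *Adm* and *Slco4a1* rose and *Egln3* fell past the thresholds, and the other 4 did not pass. Among all listed HaCa4 genes 15.9% passed upwards and 14.1% downwards. This count of calls, 87 in all, rests on single libraries. It was 6 without HaCa4 control replicate 1, 0 without control replicate 2, 0 without sorted replicate 3, and 194 without sorted replicate 1, with 101, 70, 126, and 224 genes at an unadjusted p under 0.05 in limma. *Slco4a1* was at 27.7 ± 3.63 TPM (SD, n = 2) against 56.8 ± 16.4 TPM (SD, n = 3), and with a common median it did not pass, which left *Adm* higher and *Egln3* lower.

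*Egln3*, a prolyl hydroxylase that marks HIF proteins for degradation and is itself a HIF target, had 67.95 and 81.70 TPM in HaCa4 control, whereas the sorted replicates had 42.79, 38.65, and 55.23 TPM. The groups did not overlap, and its log2 change was -0.71 (adjusted p = 0.0386 in limma). Without sorted replicate 2, the library with the highest endothelial markers, 3 genes of the list again passed. *Cyr61* then passed in place of *Egln3*, whose adjusted p in limma was 0.0501 in that fit. *Egln3* was the 1 gene listed of the 14 HIF factors and regulators, and *Adm* the 1 gene of the adrenomedullin system. Of the 23 genes around *Angptl4* and lipoprotein lipase, *Cpt1a*, which admits fatty acids to mitochondrial oxidation, was listed and was lower (log2 change -0.52, adjusted p = 0.0486 in limma). Of the 29 angiogenic ligands and receptors, 4 were listed (*Kdr*, *Flt4*, *Angpt2*, and *Tie1*), all with higher means in HaCa4-sorted. With limma 0 of the 4 passed the thresholds, and 2 passed with a common median.

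*Adm* could be set side by side in both cell lines, with TPM relative to the transcripts of each line. In LEC control its level was 255 times that in HaCa4 control, and the lowest LEC library was 18.6 times the highest HaCa4 library. The contrast of the control groups in limma over all 11 libraries was 7.20 on the log2(TPM + 1) scale, with a standard error of 0.36 and an adjusted p of 3.19e-10. Of the 23 genes listed for both lines, 56.5% were higher in LEC control past the thresholds. The mean difference between sorted and control was 343 TPM in LECs and 8.61 TPM in HaCa4 cells.

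On the log2 scale the change of *Adm* was smaller in LECs than in HaCa4 cells by 1.13, with a standard error of 0.49 (interaction term in limma, adjusted p = 0.0468). Of the 23 shared genes, 82.6% passed the thresholds in this test. The call was close to the limit and was lost in 8 of 11 fits that each left out a library, which gave differences from -1.41 to -0.73. It was kept without HaCa4-sorted replicate 1, HaCa4-sorted replicate 3, or LEC-sorted replicate 1 (adjusted p from 0.0120 to 0.0499). With a pseudocount of 5 the difference was -0.20 (adjusted p = 0.625 in limma).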

How the data were processed

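RNA of 11 libraries was sequenced on a BGISEQ platform. According to the study's methods and the submitters' processing notes, SOAPnuke was used by the authors to clean reads, HISAT2 2.0.4 for alignment against GRCm38.p6, and DESeq2 for differential expression. The deposited values are TPM per gene and library, with 2 decimals. The tool that gave the TPM is not given in the sources used here. TPM keeps no read numbers, so depth is unknown and precision rests on the spread between libraries. No 2 libraries of a group held the same values, as at most 5 genes were identical above 0.

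Fits used limma 3.58.1 in R 4.3.3 on log2(TPM + 1), with the trend option of eBayes, run on all 191 or 290 listed genes and, between lines, on the 23 shared genes. P-values were Benjamini-Hochberg adjusted over those genes. Calls needed an adjusted p of at most 0.05 and a log2 difference of at least 0.5 in size. The step was tested on simulated data, in which part of the genes changed, in either direction with equal odds, and no selection was made. That setting differs from the listed genes, so it does not give the rate of false calls among them. Ratios within libraries were compared by exact permutation.

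The members and gene lists were chosen with earlier results of these data known. Named genes were the members, listed genes of the fixed lists, and the 5 genes most like each member by Pearson r. A gene of the hypoxia list and of the genes most like *Adm* is not reported here and was left out of the list's counts. Alternatives were pseudocounts of 0.1 and 5, filters at a mean of 1 and 10 TPM, scaling to a common median of the listed genes, no trend, a replicate block, a log2 threshold of 1, and leaving out each library. For the hypoxia list, scaling and leaving out a library were added after seeing the data. Promoters came from RefSeq on GRCm38.p6, for 2 of 3 members, and exons from GENCODE M21. Python 3.11.15 and matplotlib 3.10.9 were used.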

Additional observations from a re-analysis of the deposited data

Results flagged for a closer look

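The change of *Adm* differed between the cell lines by the interaction term in limma, by -1.13 on the log2 scale (LEC change minus HaCa4 change, adjusted p = 0.0468). *Adm* was higher in sorted than in control libraries in 3 of 3 LEC-sorted and 3 of 3 HaCa4-sorted libraries. The difference lies in the size of the rise on the log2(TPM + 1) scale, from a mean of 1.35 TPM in HaCa4 control. In TPM the mean rise was 343 in LECs and 8.61 in HaCa4 cells. With a pseudocount of 5 the difference was -0.20 (adjusted p = 0.625 in limma). The change of *Kdr* differed by -1.50 (adjusted p = 0.0103 from the same test), with lower values in all 3 LEC-sorted libraries and higher ones in all 3 HaCa4-sorted libraries. In HaCa4 cells the controls had 0.05 and 0 TPM of *Kdr*, compared with 0.15, 1.87, and 1.16 TPM after co-culture. These values are near the pseudocount of 1, and the rise of *Kdr* in HaCa4 cells did not pass the thresholds (0.91, adjusted p = 0.118 in limma). In HaCa4-sorted, *Kdr* was 1 of the 20 endothelial markers that had the same order of libraries as *Adm*. The part of endothelial RNA in either level was not tested. Groups of 3 libraries or fewer were not examined for single outlying libraries.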

How the results depend on the processing

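In LECs, *Hif1a* and *Adm* passed the thresholds under 12 of 13 alternatives and *Angptl4* under all 13. As 184 of the 191 listed LEC genes passed in the main fit, this tally is not independent evidence of a change. With libraries scaled to the common median of the listed genes, which lowers nearly all fold changes together by construction, *Hif1a* (0.15) and *Adm* (0.36) no longer passed. That scaling also gave 110 LEC genes, 140 HaCa4 genes, and 4 and 2 hypoxia-list genes in LECs and HaCa4 cells past the thresholds, against 184, 87, 7, and 3. A log2 threshold of 1, outside that tally, left 95 LEC and 39 HaCa4 genes, and *Hif1a* (0.77) and *Adm* (0.99) in LECs fall below it. The HaCa4 count was 177 with a pseudocount of 0.1, 33 with 5, and 0 without the trend (161 at an unadjusted p under 0.05 in limma), and from 0 to 194 when 1 library was left out. Without a HaCa4 control the lone control is assumed to vary like the sorted group. *Adm* in HaCa4 cells did not pass with a pseudocount of 5 (1.17) or without the trend (2.11, adjusted p = 0.0735 in limma), and ranged from 1.72 to 2.40 without 1 library. A filter at 10 TPM removed it. The *Adm* difference between lines was -0.20 with a pseudocount of 5 and -1.13 with a filter at 10 TPM (adjusted p = 0.0520 in limma), neither past the threshold, and from -1.41 to -0.73 without 1 library. The *Adm* to *Hif1a* log2 ratio difference ranged from -0.056 to 0.41 without 1 library. The *Adm* level contrast and both *Angptl4* ratios kept their direction throughout. Replicate numbers did not pair the LEC libraries (r of deviations 0.23, 0.07, and -0.02), and a replicate block gave 182 LEC genes and 115 HaCa4 genes and changed no call of a member. With the second HaCa4 control numbered 3, as its deposited table is named, the block gave 22 HaCa4 genes and *Adm* at 1.72 (adjusted p = 0.0777 in limma). Other causes were not tested.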
